A study of Mus musculus with 15 samples.

Results

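The comparison described here set retinas of mice with optic nerve crush (ONC) and needling at GV16 (ONC-S), the sham point of the study, against retinas of mice with crush and no needling (ONC). Its members were the 3 ONC-S and the 3 ONC libraries, 6 of the 15 in the series, and the 19259 of 54532 listed genes that passed a filter on low counts. All mice were C57BL/6, wild type and labelled as 5 weeks old (the text of the study gives another age), and whole retina was taken 2 days after the crush. ONC-S mice had the crush and needling at GV16, which was given 3 times after the crush, and ONC mice had the crush alone. The other 9 libraries, used for context, were 3 from crush with needling at GB20 (ONC-F), 3 from crush with needling at BL1 (ONC-J) and 3 from naïve retina without crush (WT). Needling at GB20 and BL1 was done under anesthesia, and the sources used here do not describe the anesthesia for GV16 or say whether ONC mice were anesthetized again. The 3 ONC-S samples entered the series apart from the other 12, so a batch and the needling cannot be told apart in any result below. The methods name mice per group and repeats of the experiment but not which mice a library holds, so n counts libraries and the p-values measure the spread between libraries.

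Crush of the optic nerve cuts the axons of retinal ganglion cells (RGCs), the output neurons of the retina, and the damaged cells switch on a stress and regrowth program. Part of it is the integrated stress response, in which phosphorylation of the initiation factor eIF2 slows general translation while the transcription factor ATF4 raises genes for amino acid uptake, amino acid synthesis and tRNA charging. Most retinal RNA comes from other cells, above all from rods, so a change in whole retina is not a change in RGCs alone. Fewer cells of a type and less RNA per cell cannot be told apart in such samples.

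The ONC-S libraries held 17468883 to 26112762 counts and the ONC libraries 17154653 to 19885288. Mitochondrial genes took 2.17% to 2.39% of counts in ONC-S and 2.12% to 2.25% in ONC, and the 10 highest genes took 7.38% to 7.79% and 6.89% to 7.61%. Long noncoding RNA genes took 1.93% to 2.04% of counts in ONC-S and 2.14% to 2.23% in ONC, with no overlap. The rod arrestin gene Sag stood at 5001, 5326 and 5183 CPM (counts scaled by library size and TMM factor) in ONC-S, against 4222, 3713 and 3903 CPM in ONC, so a defining rod marker was abundant in all 6 libraries. In a principal component analysis of the 6 libraries the first axis, with 36.8% of the variance, put the 3 ONC-S libraries at 13.8 to 29.1 and the 3 ONC libraries at -35.9 to -11.1. ONC replicate 2, at -35.9, lay farthest out. Gfap, the filament gene of reactive glia, showed the spread inside the groups, with 29.7, 67.9 and 100.1 CPM in ONC-S, against 34.6, 142 and 59.5 CPM in ONC.

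A total of 2791 genes were called in ONC-S against ONC at an adjusted p under 0.05 (edgeR quasi-likelihood test, Benjamini-Hochberg), which is 14.5% of the genes tested. Of these, 1464 were higher (7.6% of the tested genes) and 1327 were lower (6.89%). Most changes were small. The median log2 fold change was 0.29 among the higher and -0.40 among the lower genes, and 47 genes were higher and 128 lower by at least 1 on the log2 scale. With scaling to total counts alone, in place of TMM, 956 genes were higher and 1887 lower. Without ONC-S replicate 2 the test called 1722 genes, without ONC replicate 2 1724 and without ONC replicate 3 1803. The same test called 1 gene in ONC-F against ONC and 24 genes in ONC-J against ONC (0.00519% and 0.125% of the tested genes), with 1569 (8.15%) and 1605 genes (8.33%) at an unadjusted p under 0.05. In ONC-S against ONC 5428 genes (28.2%) had an unadjusted p under 0.05. The ONC libraries are shared by these comparisons.

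**Figure D1:**
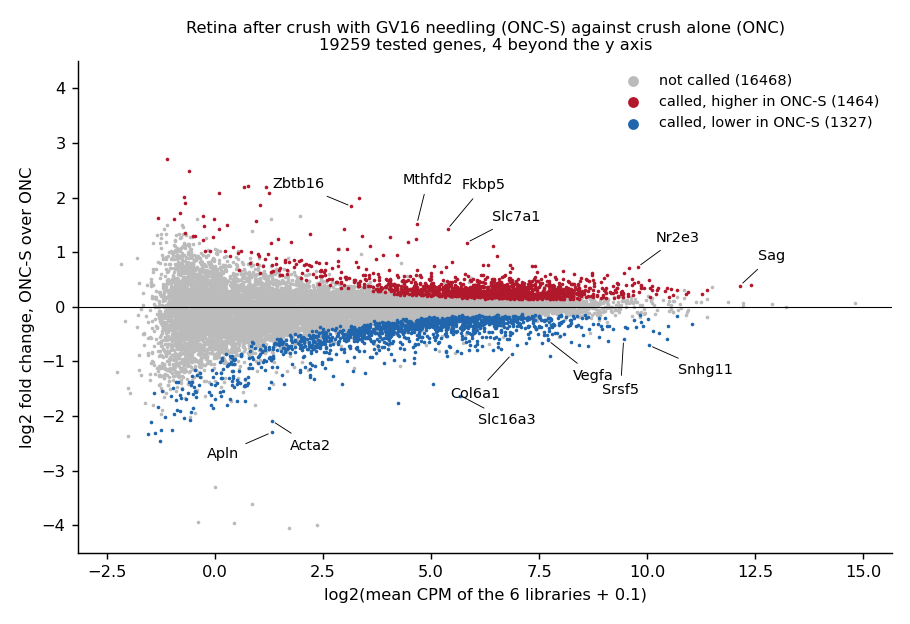
Log2 fold change of ONC-S over ONC (y axis) against mean level on a log2 scale (x axis) for the tested genes, each a point. The 1464 red points were called higher and the 1327 blue points lower in ONC-S; 4 genes lie beyond the y axis.

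The ONC-S libraries also stood apart from the rest of the series. In 1831 of the 2791 called genes (65.6%), all 3 ONC-S values lay outside the range of the 12 other libraries, WT included. This held for 13.3% of all tested genes. The called genes were picked for a difference from ONC, whose 3 libraries are among the 12. A higher share among called genes thus follows in part from the choice. It is a description of the libraries and was not tested. The 3 ONC-S and 3 ONC values did not overlap in 32.7% of the tested genes. Of the genes given below by library, the groups overlapped in Chac1, Malat1, Mrc1, Opn1mw, Per1, Rbpms and Tsc22d3 and in no other. Set directly against the other needled groups, 2816 genes were called in ONC-S against ONC-F (14.6%) and 2484 in ONC-S against ONC-J (12.9%).

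Integrated stress response genes were called higher and none lower in ONC-S. Of 31 tested genes, 17 were higher and 0 lower, with a median log2 fold change of 0.25, beside -0.01 over all tested genes. Slc7a1, which imports arginine and lysine, stood at 74.6, 78.1 and 82.6 CPM in ONC-S, against 33.5, 35.2 and 35.6 CPM in ONC (log2 fold change 1.17 ± 0.15 (SE), adjusted p = 7.03e-05). Mthfd2, a mitochondrial folate enzyme and a known ATF4 target, had 30.7, 41.9 and 40.2 CPM in ONC-S, against 12.5, 14.8 and 12.1 CPM in ONC (log2 fold change 1.52 ± 0.22 (SE), adjusted p = 1.73e-04). In both genes every ONC-S value lay above all 12 other libraries, whose highest values were 62.9 and 27.8 CPM. Trib3, a pseudokinase that feeds back on ATF4, had 18.2, 20.1 and 19.7 CPM in ONC-S, against 12.1, 8.83 and 9 CPM in ONC (log2 fold change 0.95 ± 0.18 (SE), adjusted p = 0.00129). Atf3, a transcription factor of injured neurons, had 45.9, 49.8 and 56.8 CPM in ONC-S, against 26.9, 37 and 28.1 CPM in ONC (log2 fold change 0.73 ± 0.13 (SE), adjusted p = 8.87e-04).

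Genes for tRNA charging were among them. Cars, which charges cysteine tRNA, had 103, 135 and 125 CPM in ONC-S, against 57.2, 69.7 and 64.6 CPM in ONC (log2 fold change 0.92 ± 0.14 (SE), adjusted p = 2.99e-04). Aars, for alanine tRNA, had 357, 395 and 396 CPM in ONC-S, against 243, 264 and 252 CPM in ONC (log2 fold change 0.60 ± 0.09 (SE), adjusted p = 2.92e-04). Gars, Tars and Nars were also called higher, with log2 fold changes of 0.41, 0.46 and 0.21, whereas Wars and Sars were not called. The regulators Atf4, Ddit3 and Cebpg were higher, with log2 fold changes of 0.45, 0.29 and 0.28. Nars lost the call without any 1 of the 6 libraries (adjusted p up to 0.113), and Cebpg without ONC-S replicate 2 or 3 or ONC replicate 1 or 3 (up to 0.129). Other known targets were not called: Asns, which makes asparagine, had a log2 fold change of 0.16 and an adjusted p of 0.131, and Chac1, which degrades glutathione, had 14.5, 12.9 and 17.3 CPM in ONC-S, against 15.6, 13.8 and 15.5 CPM in ONC (adjusted p = 0.994).

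Transport genes for amino acids overlap with this list. Of 17 tested, 8 were higher and 0 lower (47.1% called, beside 14.5% of all tested genes). The median log2 fold change against ONC was 0.12 in ONC-S, 0.07 in ONC-F and 0.13 in ONC-J, with 8, 0 and 0 genes called. Slc7a5 encodes the large neutral amino acid exchanger and had 92.2, 99.7 and 111 CPM in ONC-S, against 61.1, 60.6 and 57.3 CPM in ONC (log2 fold change 0.76 ± 0.11 (SE), adjusted p = 1.73e-04). Slc1a4, a neutral amino acid carrier, had a log2 fold change of 0.75 ± 0.11 (adjusted p = 2.10e-04). Odc1, which makes the polyamine putrescine from ornithine, had 229, 197 and 209 CPM in ONC-S, against 127, 129 and 121 CPM in ONC (log2 fold change 0.75 ± 0.08 (SE), adjusted p = 1.09e-05). The polyamine genes did not all go the same way, as 2 of 13 were higher and 3 lower, and the lower ones included the Odc1 inhibitor gene Oaz1 (-0.21) and Sat1 (-0.29), which drives polyamine export. Sat1 lost the call without ONC-S replicate 1 or 2 or ONC replicate 2 (adjusted p up to 0.225), and 1 polyamine gene was higher without ONC-S replicate 2 or 3 or ONC replicate 2 or 3.

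The promoters of this list are shown because some carry the amino acid response element, the site known to bind ATF4. The core TGATGNAA, read on both strands, was found in 9 of 31 windows of 250 bases before the gene start (29.0%), from the 27 listed genes matched in RefSeq, beside 3.45% of all 32841 windows. The list was written from known targets, so the share describes it and is no finding about ONC-S. Of the 9 genes with the core, Aars, Atf3, Gars and Tars were called higher and Asns, Chac1, Nupr1, Slc7a11 and Vldlr were not called. The windows of Aars (GRCm38.p6, chr8:111033592-111033841, plus strand) and Atf3 (chr1:191183334-191183583, minus strand) read as follows, 5′ to 3′ on the gene's strand, with the core in capitals.
Aars: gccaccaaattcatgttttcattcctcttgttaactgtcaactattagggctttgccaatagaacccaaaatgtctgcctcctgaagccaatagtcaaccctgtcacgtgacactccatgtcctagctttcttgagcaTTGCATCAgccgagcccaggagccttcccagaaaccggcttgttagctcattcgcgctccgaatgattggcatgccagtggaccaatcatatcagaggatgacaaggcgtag
Atf3: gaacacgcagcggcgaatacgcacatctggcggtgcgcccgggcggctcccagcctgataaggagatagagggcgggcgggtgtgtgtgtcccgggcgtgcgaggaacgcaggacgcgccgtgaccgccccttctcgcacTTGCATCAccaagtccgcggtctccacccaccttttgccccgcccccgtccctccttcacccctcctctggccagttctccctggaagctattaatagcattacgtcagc

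Genes of the crush response were those called in the same direction in both ONC-F and ONC-J against WT. These contrasts hold no ONC-S or ONC library. The filter, the scaling and the estimate of the spread came from the fit over all 15 libraries, so the choice was not fully independent of ONC-S and ONC. Of the 177 genes higher after injury, 59 were higher and 1 was lower in ONC-S than in ONC, which is 33.9% called beside 14.5% of all tested genes. The median log2 fold change was 0.16. Mthfd2, Slc7a1, Atf3, Odc1, Cars, Ddit3 and the metallothionein gene Mt1 were among the 59, as were the translation genes Pabpc1, Eif4b and Eif2s2. Creb5, a bZIP transcription factor, had 7.62, 7.65 and 6.24 CPM in ONC-S, against 4.6, 5.49 and 5.04 CPM in ONC (log2 fold change 0.50 ± 0.15 (SE), adjusted p = 0.0289). Creb5 lost the call without ONC-S replicate 1 or 2 or ONC replicate 1 or 3 (adjusted p up to 0.105). The 1 gene that was lower was Cyp4f16, a cytochrome P450 gene, with 16.6, 15.1 and 17.5 CPM in ONC-S, against 20.8, 20.3 and 21.7 CPM in ONC (log2 fold change -0.35 ± 0.08 (SE), adjusted p = 0.00627). Of the 47 genes that rose by at least 1 log2 unit in both groups, 8 were higher and 0 lower (17.0%).

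Of the 157 genes lower after injury, 20 were lower and 9 higher in ONC-S (18.5% called), with a median of -0.06. Rasgrp2, an activator of the small GTPase Rap1, had 3.75, 3.35 and 4.79 CPM in ONC-S, against 7.55, 5.94 and 6.13 CPM in ONC (log2 fold change -0.71 ± 0.19 (SE), adjusted p = 0.018). Rasgrp2 lost the call without ONC-S replicate 1 or 2 or ONC replicate 1 (adjusted p up to 0.0815). Nefm, the medium neurofilament gene of RGCs and their axons, was among the 9 that were higher, at 108, 112 and 109 CPM in ONC-S, against 87.2, 91.2 and 92 CPM in ONC (log2 fold change 0.28 ± 0.06 (SE), adjusted p = 0.0024). These groups were chosen with ONC-F and ONC-J, which were needled, so a gene that needling itself moved can be among them. Without ONC replicate 3, 39 of the 177 were higher and 2 lower. The 20 became 11 without ONC-S replicate 2 and 12 without ONC replicate 2 or 3. The 9 became 4 or 5 without any 1 of ONC-S replicates 1 and 2 and the 3 ONC replicates.

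**Figure D2:**
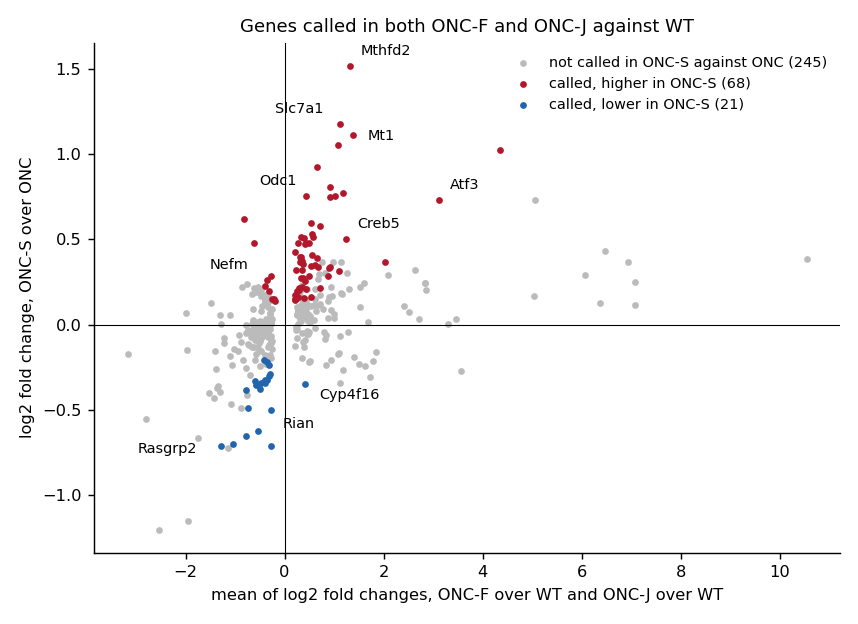
Log2 fold change of ONC-S over ONC (y axis) against the mean log2 fold change of ONC-F and ONC-J over WT (x axis) for the 334 genes called the same way in both. Of the 177 genes right of 0, 59 are red (higher in ONC-S), and of the 157 left of 0, 20 are blue (lower).

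Glucocorticoid-responsive genes formed a further group. Of 22 tested, 8 were higher in ONC-S and 0 lower, with a median log2 fold change of 0.22. Fkbp5, a co-chaperone of the glucocorticoid receptor and a standard reporter of its activity, had 72.2, 56.4 and 53.1 CPM in ONC-S, against 23.7, 23.4 and 20.6 CPM in ONC (log2 fold change 1.42 ± 0.24 (SE), adjusted p = 7.03e-04). Zbtb16, a zinc finger transcription factor, had 20.2, 11.1 and 9.96 CPM in ONC-S, against 3.8, 3.74 and 4.01 CPM in ONC (log2 fold change 1.84 ± 0.33 (SE), adjusted p = 0.00109). Plin4, a lipid droplet gene, had 8.17, 5.18 and 5.74 CPM in ONC-S, against 2.35, 2.72 and 2.52 CPM in ONC (log2 fold change 1.34 ± 0.34 (SE), adjusted p = 0.0129), and Mt1 had 92.2, 126 and 138 CPM in ONC-S, against 52.6, 68.1 and 44.1 CPM in ONC (log2 fold change 1.11 ± 0.26 (SE), adjusted p = 0.00722). The groups did not overlap in any of these 4 genes, although ONC-S replicate 1 was well above the other 2 for Zbtb16. Other widely used members were not called, among them Tsc22d3, at 31.2, 29.1 and 25.7 CPM in ONC-S, against 30.1, 31.4 and 26.6 CPM in ONC (adjusted p = 0.807), and the clock gene Per1, at 167, 134 and 126 CPM in ONC-S, against 170.2, 144 and 144 CPM in ONC (adjusted p = 0.632). Without ONC-S replicate 1, or without ONC replicate 3, 5 genes of the list were higher, and Plin4 lost the call without ONC-S replicate 1 (adjusted p = 0.0624).

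The other needled groups overlapped with ONC-S in these genes. Fkbp5 had 53.3, 44 and 27 CPM in ONC-F and 41.7, 61 and 23.8 CPM in ONC-J, and in 0 of the 8 called genes did all 3 ONC-S values lie outside the range of the 12 other libraries. Over the 22 tested genes of the list, the median log2 fold change against ONC was 0.22 in ONC-S, 0.19 in ONC-F and 0.43 in ONC-J, with 8, 0 and 0 genes called. Against ONC, the log2 fold change of Fkbp5 was 1.42 in ONC-S, 0.87 in ONC-F (adjusted p = 0.352) and 0.91 in ONC-J (adjusted p = 0.197), over the same ONC libraries. ONC-S and ONC-F did not differ past the threshold in Fkbp5 (adjusted p = 0.122) or in Zbtb16 (adjusted p = 0.0948). Outside the list, Fam107a, a stress-regulated actin-binding gene, and Etnppl, an astrocyte enzyme of phospholipid metabolism, were called higher in ONC-S and in ONC-J than in ONC. Fam107a averaged 23.3 ± 6.6 CPM in ONC-S, 22.1 ± 3.14 CPM in ONC-F, 23 ± 4.9 CPM in ONC-J and 9.54 ± 2.34 CPM in ONC (SD, n = 3 each).

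Sgk1 and Mt1 are shown because each holds a glucocorticoid receptor element, written GNACA and TGTNC with 3 bases between them and read on both strands, which was found in 3 of 30 windows of this list and in 0.387% of all windows. Sgk1 encodes a kinase that controls ion channels and had 364, 385 and 343 CPM in ONC-S, against 322, 244 and 287 CPM in ONC (log2 fold change 0.35 ± 0.08 (SE), adjusted p = 0.00556). The element stands in capitals in the windows of Sgk1 (GRCm38.p6, chr10:21993640-21993889, plus strand) and Mt1 (chr8:94178839-94179088, plus strand). The third window was that of Txnip, which was not called. The list was written from genes known to respond to glucocorticoids, so the share of windows describes it and is no finding about ONC-S.
Sgk1: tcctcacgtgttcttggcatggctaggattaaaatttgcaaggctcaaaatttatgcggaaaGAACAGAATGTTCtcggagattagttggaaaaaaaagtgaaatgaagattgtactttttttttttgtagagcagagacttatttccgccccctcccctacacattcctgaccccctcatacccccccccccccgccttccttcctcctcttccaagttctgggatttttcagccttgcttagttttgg
Mt1: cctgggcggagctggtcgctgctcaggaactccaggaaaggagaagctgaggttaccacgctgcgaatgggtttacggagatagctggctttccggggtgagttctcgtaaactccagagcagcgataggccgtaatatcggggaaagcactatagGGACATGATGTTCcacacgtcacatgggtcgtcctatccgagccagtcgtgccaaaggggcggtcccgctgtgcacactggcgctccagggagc

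Hypoxia-inducible genes were mostly lower in ONC-S. Of 19 tested, 10 were lower and 1 higher, with a median log2 fold change of -0.47. Vegfa, the growth factor of vessels, had 157, 167 and 171 CPM in ONC-S, against 223, 274 and 261 CPM in ONC (log2 fold change -0.61 ± 0.09 (SE), adjusted p = 2.21e-04). Pdk1, which keeps pyruvate out of the mitochondrion, had a log2 fold change of -0.82 ± 0.17 (adjusted p = 0.00261) and P4ha1, a collagen hydroxylase subunit, -0.70 ± 0.15 (adjusted p = 0.00345). For Vegfa every ONC-S value lay below the 12 other libraries, the lowest of which was 189.6 CPM. Ndrg1 was the exception, at 239, 250.4 and 229 CPM in ONC-S, against 194, 183 and 180.1 CPM in ONC (log2 fold change 0.37 ± 0.06 (SE), adjusted p = 2.68e-04). Epas1, the gene of the hypoxia factor HIF-2α, was not in the list and was looked at after the values were seen. It had 253, 231 and 225 CPM in ONC-S, against 171, 147 and 163 CPM in ONC (log2 fold change 0.56 ± 0.07 (SE), adjusted p = 3.04e-05).

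The hypoxia-inducible list also holds the glucose transport and glycolysis genes Slc2a1, Pgk1 and Ldha, so the next list is not separate from it. Glycolysis and lactate transport had more lower than higher calls, with 12 of 24 tested entries lower and 1 higher. That is 54.2% called, beside 14.5% of all tested genes, with a median of -0.24. The median against ONC was -0.09 in ONC-F and -0.13 in ONC-J, with 0 entries called in either. The entries summed to 13049 to 13987 CPM in ONC-S and 13276 to 16859 CPM in ONC-J. The sums were 13773 to 15597 CPM in ONC-F and 14778 to 16494 CPM in ONC. Slc16a3, the lactate exporter MCT4, had 24.9, 23.6 and 26.3 CPM in ONC-S, against 57.1, 86.9 and 87.3 CPM in ONC (log2 fold change -1.62 ± 0.26 (SE), adjusted p = 3.96e-04), and none of the 3 ONC-S values reached the lowest of the other 12 libraries, 34.1 CPM. Pfkl, the liver form of phosphofructokinase, had 316, 297 and 289 CPM in ONC-S, against 428, 533 and 526 CPM in ONC (log2 fold change -0.72 ± 0.14 (SE), adjusted p = 0.00172). Slc2a1, the glucose transporter GLUT1, had 164, 168 and 167 CPM in ONC-S, against 205, 240.0 and 240.1 CPM in ONC (log2 fold change -0.46 ± 0.08 (SE), adjusted p = 8.82e-04). Eno1, an enolase, was among the most abundant lower genes, at 2008, 1841 and 1758 CPM in ONC-S, against 2137, 2407 and 2423 CPM in ONC (log2 fold change -0.31 ± 0.09 (SE), adjusted p = 0.027). Hk1, the main brain and retina hexokinase, was the 1 gene that was higher, at 1018, 1080.4 and 1168 CPM in ONC-S, against 824, 934 and 806 CPM in ONC (log2 fold change 0.35 ± 0.07 (SE), adjusted p = 0.00135). Aldoa stood on 2 entries of the count table, and Gapdh, Pkm and Ldhb were not called. The count of 12 became 7 without ONC-S replicate 3 or without ONC replicate 3. Eno1 lost the call without ONC-S replicate 2 or 3 or ONC replicate 2 or 3 (adjusted p up to 0.0989).

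Pgk1 and Ldha encode glycolytic enzymes that HIF-1 is known to bind and induce. Pgk1 had 383, 391 and 378 CPM in ONC-S, against 496, 592 and 600.1 CPM in ONC (log2 fold change -0.55 ± 0.12 (SE), adjusted p = 0.00395), and Ldha had 816, 863 and 821 CPM in ONC-S, against 966, 1014 and 1070.0 CPM in ONC (log2 fold change -0.29 ± 0.06 (SE), adjusted p = 0.00484). Their windows are shown because they hold more than 1 copy of the hypoxia response element core ACGTG, read on both strands, which overlaps itself in CACGTG. The core was found in 14 of 25 windows of this list (56.0%) and in 16.6% of all windows. The list was written from known targets, so the share describes it. Of the 12 genes with the core, Bnip3, Ldha, P4ha1, Pgk1, Slc2a1 and Vegfa were called lower and Ankrd37, Egln1, Egln3, Hk2, Mxi1 and Pfkfb3 were not called. The Vegfa window with the core lies before an internal start. That core falls in coding sequence and not upstream of the gene. The window of Pgk1 lies at chrX:106186850-106187099, plus strand and that of Ldha at chr7:46845554-46845803, plus strand (GRCm38.p6).
Pgk1: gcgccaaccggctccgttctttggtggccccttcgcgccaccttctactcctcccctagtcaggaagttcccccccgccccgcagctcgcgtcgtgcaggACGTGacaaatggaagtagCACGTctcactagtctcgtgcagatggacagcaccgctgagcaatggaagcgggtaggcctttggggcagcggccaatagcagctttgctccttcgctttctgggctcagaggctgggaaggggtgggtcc
Ldha: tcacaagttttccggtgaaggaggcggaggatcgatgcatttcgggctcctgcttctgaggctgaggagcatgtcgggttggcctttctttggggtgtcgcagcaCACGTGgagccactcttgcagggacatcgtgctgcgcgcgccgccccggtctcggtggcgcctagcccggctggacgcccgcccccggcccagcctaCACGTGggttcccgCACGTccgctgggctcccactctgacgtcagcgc

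**Figure D3:**
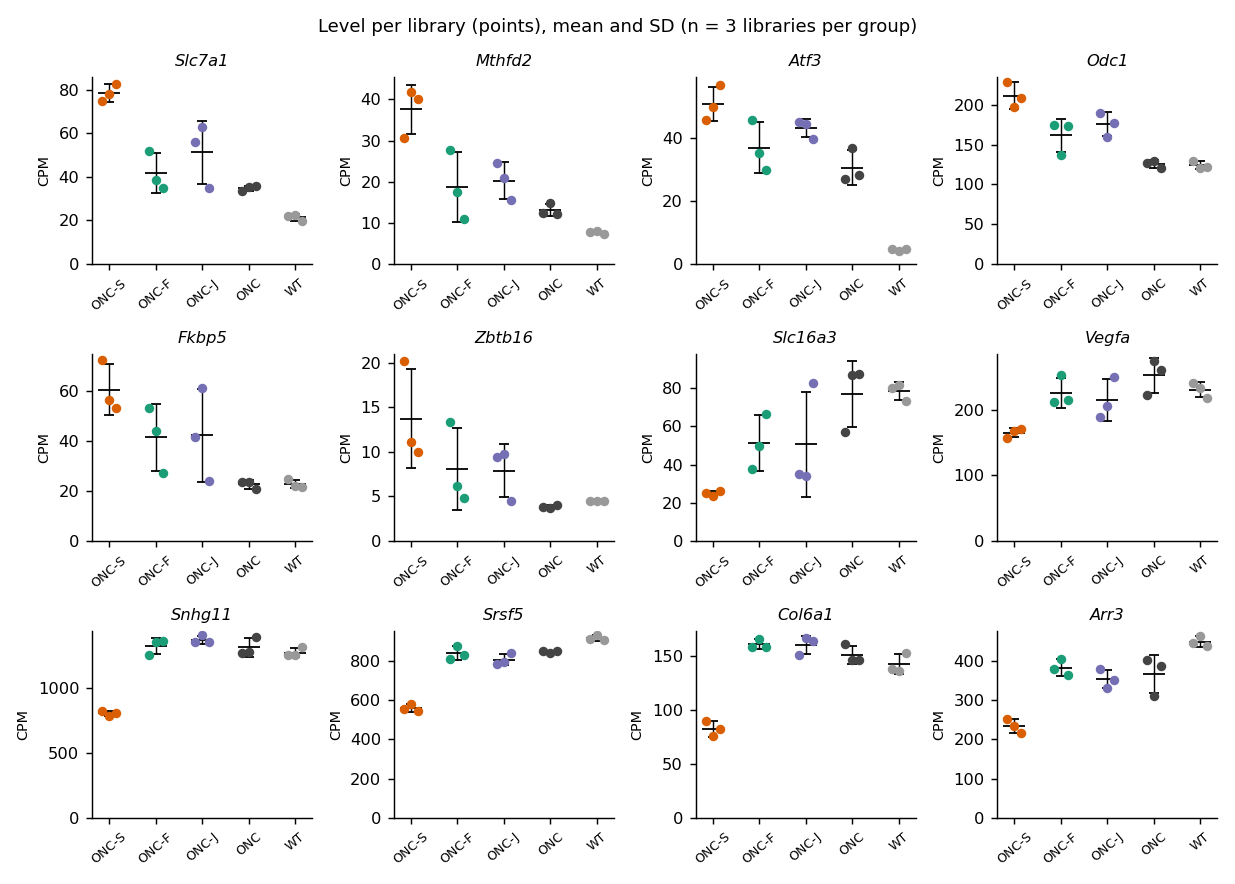
CPM (y axis, from 0) of 12 genes in each library (points) of ONC-S, ONC-F, ONC-J, ONC and WT, with the mean and SD of 3 libraries. Slc7a1 and Mthfd2 are highest and Slc16a3, Vegfa, Snhg11, Srsf5, Col6a1 and Arr3 lowest in ONC-S, whereas Fkbp5 and Zbtb16 overlap with ONC-F and ONC-J.

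Most RNAs known to stay in the nucleus were lower. Of 8 tested nuclear long noncoding RNAs, 6 were lower and 0 higher, with a median of -0.43. Snhg11, a neuronal small nucleolar RNA host gene, had 825, 784 and 808 CPM in ONC-S, against 1270.4, 1275 and 1396 CPM in ONC (log2 fold change -0.71 ± 0.05 (SE), adjusted p = 3.44e-07). The other 12 libraries held at least 1253 CPM. Rian, an RNA of the imprinted Dlk1-Dio3 region, had 123, 131 and 121 CPM in ONC-S, against 178, 169 and 183 CPM in ONC (log2 fold change -0.50 ± 0.05 (SE), adjusted p = 1.02e-05). Meg3 and Mirg of the same region had log2 fold changes of -0.35 and -0.62, and Neat1, the scaffold RNA of paraspeckles, had 28.5, 25.6 and 31.4 CPM in ONC-S, against 40.1, 73.1 and 47.6 CPM in ONC (log2 fold change -0.90 ± 0.16 (SE), adjusted p = 8.87e-04). Malat1 did not go with them, at 3572, 3417 and 2749.9 CPM in ONC-S, against 2810.2, 2261 and 2540.4 CPM in ONC (log2 fold change 0.36 ± 0.15 (SE), adjusted p = 0.113).

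Splicing factors of the SR family and cold-inducible RNA-binding genes had 12 of 27 lower and 1 higher, with a median of -0.19. Srsf5, an SR protein, had 553, 581 and 545 CPM in ONC-S, against 851, 839 and 848 CPM in ONC (log2 fold change -0.60 ± 0.05 (SE), adjusted p = 5.49e-07), and its 12 other values were all at or above 782 CPM. Luc7l3 and Pnisr, both splicing genes, had log2 fold changes of -0.41 ± 0.05 and -0.40 ± 0.05. Cirbp, which cold induces, had 329, 269.9 and 297 CPM in ONC-S, against 379.9, 371 and 371 CPM in ONC (log2 fold change -0.32 ± 0.07 (SE), adjusted p = 0.00241), whereas Rbm3, the other cold-inducible gene, was not called (-0.24, adjusted p = 0.209). The highest mean levels among lower genes included the host genes of the neuronal miR-124, Mir124a-1hg and Mir124-2hg, with log2 fold changes of -0.17 ± 0.05 and -0.48 ± 0.09. Mir124a-1hg kept the call only without ONC-S replicate 2 (adjusted p up to 0.111 otherwise).

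Gene class and gene length moved with the calls. This was looked at after the values had been seen. Of 2264 tested long noncoding RNA genes, whose share of counts was also lower in all 3 ONC-S libraries, 33 were higher (1.46%) and 161 lower (7.11%), against 1378 higher (9.28%) and 1047 lower (7.05%) of 14845 protein-coding genes. Among genes above 4 CPM on average, the share called higher was 4.74% in the 1624 shortest and 21.0% in the 1624 longest by exonic length, and the share called lower was 11.1% and 6.59%. The median log2 fold change went with it, -0.05 in the shortest and 0.06 in the longest eighth. In ONC-F against ONC, which shares the ONC libraries, these medians were 0.05 and -0.03.

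With offsets for GC content and length in the fit, 1704 genes were higher and 1121 lower. The same offsets left 19 of 31 integrated stress response genes higher, 8 of 22 glucocorticoid-responsive genes higher, 10 of 19 hypoxia-inducible genes lower and 7 of 8 nuclear RNAs lower. They moved other lists more. Cytoplasmic ribosomal protein genes, which are short, had 30 of 85 higher and 5 lower without the offsets, and 46 higher and 3 lower with them. Without ONC-S replicate 1 or ONC replicate 2 or 3, 2 were lower. Nuclear-encoded subunits of oxidative phosphorylation had 3 of 83 higher and 14 lower without the offsets, and 7 higher and 7 lower with them. Without the offsets, 9 were lower without ONC-S replicate 1 or 2 and 8 without ONC replicate 2, and 1 was higher without ONC-S replicate 2 or 3 or ONC replicate 1 or 2. Many ribosomal protein genes have pseudogene copies in the genome, so their counts are uncertain where reads were shared.

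**Figure D4:**
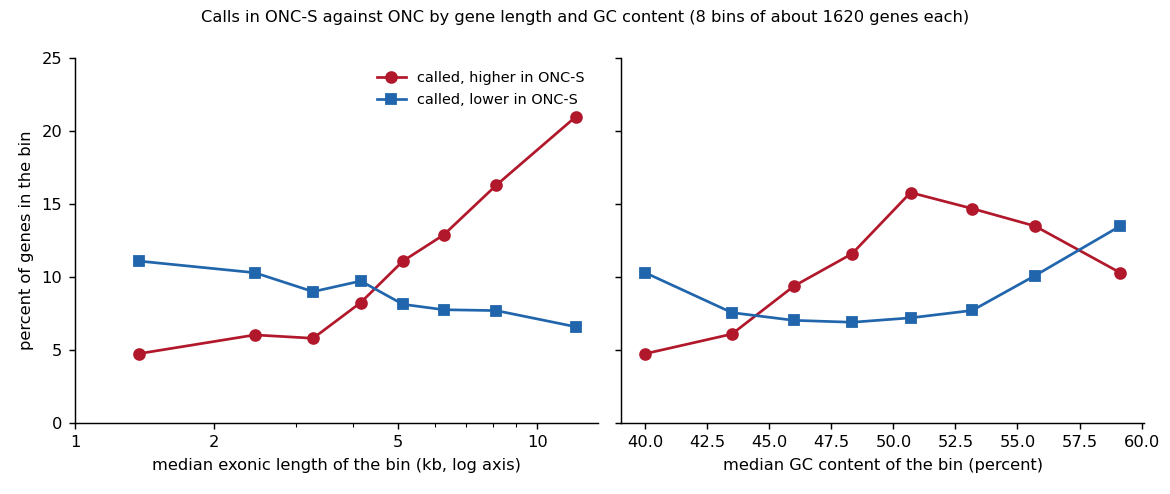
Percent of genes called higher (red circles) or lower (blue squares) in ONC-S against ONC, by median exonic length (left, log axis) and median GC content (right) of 8 bins. The share called higher is 4.74% in the shortest and 21.0% in the longest bin.

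Rod and cone markers had calls in opposite directions. Of 13 rod markers 5 were higher and 0 lower, and of 10 cone markers 0 were higher and 3 lower. Nr2e3, the transcription factor known to repress cone genes in rods, had 1242, 1050.5 and 1009 CPM in ONC-S, against 797, 590.0 and 602 CPM in ONC (log2 fold change 0.73 ± 0.13 (SE), adjusted p = 0.00111). Sag, which encodes rod arrestin, had 5001, 5326 and 5183 CPM in ONC-S, against 4222, 3713 and 3903 CPM in ONC (log2 fold change 0.39 ± 0.06 (SE), adjusted p = 4.85e-04). Arr3, which encodes cone arrestin, had 252, 234 and 216 CPM in ONC-S, against 403, 311 and 387 CPM in ONC (log2 fold change -0.65 ± 0.08 (SE), adjusted p = 4.48e-05), below all 12 other libraries (lowest 311 CPM). Opn1sw, the short-wave cone pigment, had a log2 fold change of -0.21 ± 0.06 (adjusted p = 0.0302), whereas the middle-wave pigment Opn1mw was not called (136, 115 and 108 CPM in ONC-S, against 102, 108 and 112 CPM in ONC). Without ONC-S replicate 1 or ONC replicate 2 3 rod markers were higher. Opn1sw lost the call without ONC-S replicate 1 or 2 or ONC replicate 1 or 3 (adjusted p up to 0.143).

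The wider phototransduction list had 10 of 25 genes higher and 2 lower. Guca1a, the activator of retinal guanylate cyclase, had 1009, 944 and 895 CPM in ONC-S, against 656, 509 and 574 CPM in ONC (log2 fold change 0.71 ± 0.09 (SE), adjusted p = 3.78e-05). Gnb5, a partner of the RGS9 complex that ends the light response, had a log2 fold change of 0.51 ± 0.08 (adjusted p = 1.99e-04). Pdc, phosducin, which binds transducin subunits, was lower, at 1364, 1051 and 969 CPM in ONC-S, against 1556, 1594 and 1927 CPM in ONC (log2 fold change -0.59 ± 0.14 (SE), adjusted p = 0.00952). The rod transducin gene Gnat1 was not called (adjusted p = 0.98). Without ONC replicate 2, 6 genes of the list were higher. Pdc lost the call without ONC replicate 3 (adjusted p = 0.0541), and Esrrb without ONC-S replicate 2 or 3 (up to 0.054). Of the transcription factors of photoreceptors, Mef2d was higher (0.38 ± 0.05) and Rorb (-0.90 ± 0.20) and Esrrb (-0.70 ± 0.17) were lower. Among bipolar cell genes 2 of 12 were lower, Pcp2 (-0.66 ± 0.08) and the ON bipolar glutamate receptor gene Grm6 (-0.50 ± 0.10). That is 16.7% called, beside 14.5% of all tested genes.

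Lists of synaptic and neuronal genes differed in their calls. Of 24 presynaptic release genes, 10 were higher and 0 lower, with a median of 0.11. Bsn, the active zone scaffold bassoon, had 298, 270.0 and 262 CPM in ONC-S, against 196, 169.7 and 202 CPM in ONC (log2 fold change 0.55 ± 0.08 (SE), adjusted p = 1.84e-04), and Syn1, synapsin, had 108, 104 and 98.6 CPM in ONC-S, against 85.5, 74.6 and 81.7 CPM in ONC (log2 fold change 0.36 ± 0.07 (SE), adjusted p = 0.00107). Of 31 axon cytoskeleton genes 7 were higher and 0 lower, among them Map1b (0.40 ± 0.08) and Dpysl3 (0.53 ± 0.11). Of 28 genes of the PI3K, AKT and mTOR pathway, 11 were higher and 1 lower, with Rptor, the mTORC1 scaffold, at 131, 116 and 124 CPM in ONC-S, against 99.9, 96.4 and 101 CPM in ONC (log2 fold change 0.32 ± 0.05 (SE), adjusted p = 3.20e-04). The lower one was the S6 kinase gene Rps6kb2 (-0.32 ± 0.06). The medians of these 3 lists were at most 0.13. Of 31 glutamate receptor and postsynaptic scaffold genes 3 were higher and 2 lower (16.1% called, beside 14.5% of all tested genes). Of 24 GABA and glycine receptor and transporter genes 4 were higher and 1 lower (20.8%), and of 29 sodium and potassium channel genes 3 and 4 (24.1%). Their medians were 0.04, 0.01 and 0.04. Without ONC-S replicate 2 or ONC replicate 2, 0 of the 24 GABA and glycine genes were higher, and 1 was without ONC-S replicate 1 or ONC replicate 3. Of the channel genes, 1 was higher without ONC-S replicate 2 or ONC replicate 3, and 1 was lower without ONC-S replicate 2 or ONC replicate 1. The presynaptic count became 6 without ONC-S replicate 2 or ONC replicate 2. The pathway count of 11 became 7 without ONC-S replicate 1 or ONC replicate 1, and 6 without ONC-S replicate 2.

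Of 18 markers of RGCs, 2 were higher (Nefm and Pou4f3) and 0 lower, which is 11.1% called beside 14.5% of all tested genes. The median of the 18 markers was -0.04. Their summed level was 733 to 753 CPM in ONC-S, 688 to 722 CPM in ONC and 1072 to 1142 CPM in WT. Pou4f3, a transcription factor of RGCs, kept its call in only 1 of the 6 fits that left out a library, the one without ONC-S replicate 3 (adjusted p up to 0.132 in the others). Rbpms, an RNA-binding protein used to count RGCs, had 13.7, 14.5 and 12.7 CPM in ONC-S, against 14.2, 14.9 and 15.1 CPM in ONC (adjusted p = 0.603). Of 22 axon injury and regeneration-associated genes only Atf3 was called. On a panel of 8 genes also used for qRT-PCR, Atf3 and Ddit3 were higher. Ddit3, which encodes the stress factor CHOP, had 85.4, 77.3 and 85 CPM in ONC-S, against 64.9, 68.4 and 69.9 CPM in ONC (log2 fold change 0.29 ± 0.07 (SE), adjusted p = 0.00891), and overlaps Mars on the opposite strand. Sox11, a transcription factor of axon growth, had 23, 20.2 and 21.6 CPM in ONC-S, against 18.4, 16.6 and 16.9 CPM in ONC, did not overlap between the groups and was not called (log2 fold change 0.32 ± 0.17 (SE), adjusted p = 0.237). Jun, Klf6, Nav1, Penk and Mt3 had log2 fold changes of 0.09, 0.08, 0.14, 0.23 and -0.14, with adjusted p of 0.147 to 0.684.

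Pericyte, smooth muscle and matrix genes had lower calls and no higher ones in ONC-S. Of 10 pericyte and smooth muscle markers 6 were lower and 0 higher, with a median of -0.59. Acta2, the actin of smooth muscle, had 0.809, 0.765 and 1.11 CPM in ONC-S, against 3.25, 4.98 and 3.44 CPM in ONC (log2 fold change -2.09 ± 0.27 (SE), adjusted p = 7.94e-05). Of 31 matrix genes 9 were lower and 0 higher, with a median of -0.37. Col6a1, a collagen VI chain, had 90.0, 75.4 and 82.1 CPM in ONC-S, against 161, 146 and 146 CPM in ONC (log2 fold change -0.87 ± 0.07 (SE), adjusted p = 3.44e-07), and its lowest value in the other 12 libraries was 136 CPM. Col11a1, a fibrillar collagen, had 19.5, 14.2 and 13.9 CPM in ONC-S, against 31.6, 32.5 and 33.8 CPM in ONC (log2 fold change -1.03 ± 0.11 (SE), adjusted p = 6.74e-06). Of 13 endothelial markers 4 were lower and 1 higher, and the VEGF receptor genes parted: Flt1 had 102, 105 and 101 CPM in ONC-S, against 78.5, 64.8 and 76 CPM in ONC (log2 fold change 0.49 ± 0.06 (SE), adjusted p = 7.37e-05) and Kdr had 146, 169 and 167 CPM in ONC-S, against 209, 258 and 221 CPM in ONC (log2 fold change -0.51 ± 0.13 (SE), adjusted p = 0.0101). Without ONC replicate 2, 0 endothelial markers were lower, with 1 without ONC replicate 3 or ONC-S replicate 1 and 2 without ONC-S replicate 2. Kdr lost the call without ONC replicate 2 (adjusted p = 0.0553).

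Markers of vessels, of blood and of tissue around the retina were summed by library. The sums of ONC-S and ONC overlapped for pigment epithelium, fibroblast and lens markers. They did not overlap for pericyte and smooth muscle or for erythroid markers. The 11 pericyte and smooth muscle markers summed to 64.2 to 93.5 CPM in ONC-S and 106 to 108 CPM in ONC. The 15 pigment epithelium and melanocyte markers, of which 3 were lower (1 without ONC-S replicate 2 or ONC replicate 3) and 0 higher, summed to 125 to 169 CPM in ONC-S and 158 to 232 CPM in ONC. For the 8 fibroblast markers, with 1 of 7 tested lower, the sums were 36.2 to 46.3 CPM in ONC-S and 39.4 to 80.2 CPM in ONC. The 14 lens markers summed to 26.8 to 30.2 CPM in ONC-S and 28.7 to 80.1 CPM in ONC, and Cryaa, a lens crystallin, had 1.15, 0.176 and 0.383 CPM in ONC-S, against 14.3, 12.8 and 1.2 CPM in ONC. No lens marker was called by edgeR or DESeq2, 0 had an unadjusted p under 0.05, and 1 of the 14 was at 0 in all ONC-S libraries. The 6 erythroid markers went the other way, at 19.4 to 25.7 CPM in ONC-S and 8.71 to 14.3 CPM in ONC, with 0 called by either tool and 2 at an unadjusted p under 0.05. The part of adhering tissue in the vessel and matrix results was not tested.

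Glial and immune lists had few calls, and several depended on single libraries. Of 12 Müller glia and astrocyte markers and 19 reactive gliosis genes 0 were called, with 1 and 3 at an unadjusted p under 0.05 and 0 by DESeq2 on the 15 libraries. For reactive gliosis, 3 genes were lower without ONC replicate 1, 1 was lower without ONC-S replicate 3 and 1 higher without ONC replicate 2. Its median, -0.17 with all libraries, ran from -0.70 without ONC-S replicate 3 to 0.24 without ONC replicate 2, and without a low-count filter 8 of its genes were lower. Of 18 microglia and macrophage markers only Mrc1, the mannose receptor, was called, at 0.383, 0.176 and 0.0766 CPM in ONC-S, against 0.25, 2.09 and 0.401 CPM in ONC (log2 fold change -2.06 ± 0.68 (SE), adjusted p = 0.0482). The groups overlapped, and without ONC replicate 2 its log2 fold change was -0.60 (adjusted p = 0.634). The call was also lost without ONC-S replicate 2 (adjusted p = 0.121) or ONC-S replicate 3 (adjusted p = 0.173). Of 28 interferon-stimulated and antigen presentation genes none were called, with 4 at an unadjusted p under 0.05 and 1 lower by DESeq2. The median was -0.29, and 26 had a negative fold change. Single libraries moved this list: 8 genes were lower without ONC-S replicate 3 and 3 without ONC replicate 1, and the median was 0.02 without ONC replicate 2. Without a low-count filter 5 were lower and 1 higher. Of 18 complement genes C3 (log2 fold change -1.32 ± 0.38 (SE), adjusted p = 0.025) and C1ra (log2 fold change -1.05 ± 0.32 (SE), adjusted p = 0.0335) were lower. C3 lost the call without ONC-S replicate 1 or 2 or ONC replicate 2 (adjusted p up to 0.264), and C1ra without these or ONC replicate 1 (up to 0.181).

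**Figure D5:**
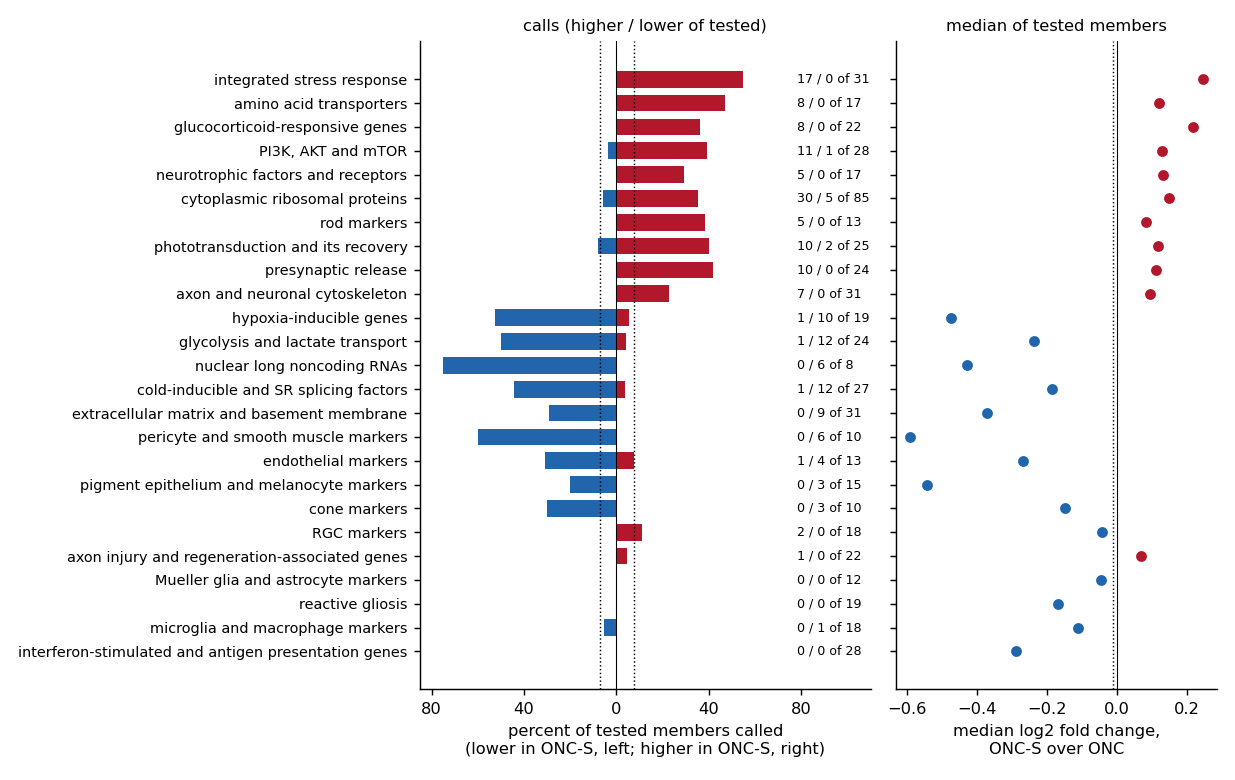
For 25 gene lists, the percent of tested members called higher (red, right) or lower (blue, left) in ONC-S against ONC, with the counts, and the median log2 fold change (right panel). Dotted lines give the values over all tested genes; integrated stress response has 17 of 31 higher and hypoxia-inducible genes 10 of 19 lower.

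By size of change, the higher genes were led by genes of low level. Nanp, a sialic acid phosphatase gene that overlaps Ninl, had 2.72, 2.88 and 1.72 CPM in ONC-S, against 0.801, 0.34 and 0.401 CPM in ONC (log2 fold change 2.20 ± 0.61 (SE), adjusted p = 0.0201). Tc2n had 2.09, 1.59 and 0.996 CPM in ONC-S, against 0.5, 0.283 and 0.287 CPM in ONC (log2 fold change 2.08 ± 0.46 (SE), adjusted p = 0.00458), and Mt2 had 1.11, 0.882 and 1.3 CPM in ONC-S, against 0.25, 0.396 and 0.401 CPM in ONC (log2 fold change 1.67 ± 0.55 (SE), adjusted p = 0.0497). Hif3a (1.30 ± 0.36) and the selenium-binding gene Selenbp1 (1.19 ± 0.36) completed the 12 largest with genes described above. Mt2 lost the call without any 1 of the 6 libraries (adjusted p up to 0.148). Selenbp1 kept it only without ONC-S replicate 3 (up to 0.124 otherwise). Nanp lost it without ONC-S replicate 1 or 2 or ONC replicate 2 or 3 (up to 0.0768), and Hif3a without ONC-S replicate 1 or ONC replicate 2 or 3 (up to 0.176).

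The most abundant of the higher genes were photoreceptor genes and others of high level. Rbp3, the retinoid carrier between photoreceptors and pigment epithelium, had 6446, 5968 and 5950.1 CPM in ONC-S, against 4566, 4806 and 4583 CPM in ONC (log2 fold change 0.40 ± 0.07 (SE), adjusted p = 5.86e-04). Pde6a, a subunit of the rod phosphodiesterase, had 3124, 3017 and 2715 CPM in ONC-S, against 2416, 2199 and 2511 CPM in ONC (log2 fold change 0.31 ± 0.06 (SE), adjusted p = 0.00265). Others were Sag, the photoreceptor kinase gene Grk1 (0.23 ± 0.07) and the acyltransferase gene Agpat3 (0.23 ± 0.07). Grk1 lost the call without ONC-S replicate 1 or 2 or ONC replicate 2 (adjusted p up to 0.111), and Agpat3 without any of these or ONC replicate 3 (up to 0.178). Pfkp, the platelet form of phosphofructokinase, was among the most abundant lower genes (-0.44 ± 0.09).

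The largest falls were also in genes of low level. Apln, which encodes the vessel peptide apelin, had 0.979, 0.412 and 0.919 CPM in ONC-S, against 1.1, 9 and 1.83 CPM in ONC (log2 fold change -2.30 ± 0.56 (SE), adjusted p = 0.00939), and ONC replicate 2 stood far above the other ONC libraries. Higd1b, a pericyte gene, had 0.468, 0.471 and 0.536 CPM in ONC-S, against 1.4, 1.02 and 2.01 CPM in ONC (log2 fold change -1.56 ± 0.34 (SE), adjusted p = 0.00424). Tyr, the enzyme of melanin synthesis, had 1.53, 1.29 and 0.766 CPM in ONC-S, against 3.55, 2.43 and 3.95 CPM in ONC (log2 fold change -1.48 ± 0.32 (SE), adjusted p = 0.00443). Mir7052, Iigp1, Mndal, Ifi203, Sp6, Ehf and Col3a1 were the others, with log2 fold changes of -1.72, -1.61, -1.80, -1.44, -1.55, -1.42 and -1.73. Mndal and Ifi203 overlap on the same strand. Apln lost the call without ONC replicate 2 (adjusted p = 0.162) and Ehf without ONC replicate 3 (adjusted p = 0.0562). Iigp1 and Mndal lost it without ONC-S replicate 1 or 2 or ONC replicate 2 (up to 0.116 and 0.125), and Col3a1 without ONC-S replicate 2 or 3 or ONC replicate 2 (up to 0.232). Sp6 kept it only without ONC-S replicate 2 (up to 0.148 otherwise).

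Genes of these lists were also set directly against the other needled groups. Slc7a1 averaged 78.4 ± 4 CPM in ONC-S, 41.8 ± 9.04 CPM in ONC-F, 51.3 ± 14.6 CPM in ONC-J and 34.8 ± 1.1 CPM in ONC (SD, n = 3 each), and ONC-S differed from ONC-F (adjusted p = 5.17e-04) and from ONC-J (adjusted p = 0.0102). Atf3 differed from ONC-F (adjusted p = 0.0184) but not past the threshold from ONC-J (adjusted p = 0.24). Snhg11 averaged 806 ± 20.5 CPM in ONC-S, 1325 ± 60.2 CPM in ONC-F, 1373 ± 31.7 CPM in ONC-J and 1314 ± 70.9 CPM in ONC, with adjusted p of 1.58e-07 and 1.00e-07 against ONC-F and ONC-J. Col6a1, Srsf5, Arr3, Acta2, Slc16a3 and Vegfa also differed from both groups. Fkbp5, Zbtb16, Mt1, Plin4, Hif3a, Fam107a and Etnppl did not pass the threshold against either.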

How the data were processed

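Poly-A RNA of retina was sequenced from both fragment ends in 15 libraries, 3 per group. Per the submitters' processing notes and the paper's methods, the authors aligned reads to mm10 with HISAT2 2.0.5 and deposited counts per gene from featureCounts, with no normalization. The authors also deposited FPKM values, used here only in alternatives. The annotation release and strand setting are not given in the sources used here, so overlapping genes were not separated.

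Genes were matched to GENCODE coordinates on GRCm38 (123 had none) and kept by filterByExpr (minimum count 10, minimum total 15). The fit was the quasi-likelihood model of edgeR 4.0.16 in R 4.3.3 with TMM factors (0.966 to 1.03) over all 15 libraries, so that the groups shared 1 estimate of the spread. P-values were adjusted by Benjamini-Hochberg over 19259 genes and called under 0.05. The paper's methods use DESeq2, which was run as an alternative (1.42.0). Alternatives also covered filters, scaling, voom, FPKM, thinning, GC and length offsets, a replicate block and leaving out each library.

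The members, gene lists and named genes were chosen with earlier results of these data known. Named genes were the 12 largest changes and the 6 highest mean levels per direction among called genes with groups that did not overlap, a mean of at least 1 CPM and a symbol that is not a predicted one, up to 4 called members per list, the marker genes and the 8 qRT-PCR genes. Epas1, Creb5, Cyp4f16, Rasgrp2, Gfap, further list members and the split by gene class and length were chosen after their values were seen. Chi-square per degree of freedom was 3.91 to 8.2 within ONC-S and 2.95 to 7.31 within ONC, so no library repeated another. The test was checked on simulated counts with known changes. Promoter sequences came from RefSeq (GRCm38.p6). Some genes that the rule names are not reported here.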

Additional observations from a re-analysis of the deposited data

Results flagged for a closer look

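The change from ONC differed between the needled groups in many genes, by the edgeR contrast of the groups in which the shared ONC mean cancels. It differed between ONC-S and ONC-F in 2816 genes and between ONC-S and ONC-J in 2484 genes of 19259. The ONC-S samples entered the series apart from the others, so needling point and batch cannot be told apart in these counts. Groups of 3 libraries are too small for the test of single outlying libraries.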

How the results depend on the processing

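With total counts as the only scaling, 956 genes were higher, and the share of higher genes among calls was 33.6%, against 52.5% with TMM; the median of all tested genes moved by -0.05. In the other 14 settings that kept all libraries, the counts of higher genes (1281 to 1885) and of lower genes (1001 to 1728) stayed within 1.5 times of 1464 and 1327. DESeq2 called 2820 genes on 15 libraries and 2338 on 6. Leaving out 1 library gave 1722 to 2270 calls, 884 to 1229 higher and 816 to 1073 lower, and left 59.0% to 74.2% of the 2791 calls in place. Among crush response genes the 59 were 39 to 48, the 1 was 1 to 2, the 9 were 4 to 7 and the 20 were 11 to 16. With a change of at least 1 log2 unit these counts were 8, 0, 0 and 1, of 47 and 25 genes. With total counts only, the 1 became 5 and the 9 became 3. No named gene that was called changed sign and stayed called in any setting run. Without a low-count filter, 17 of the matrix genes were lower.

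The replicate numbers did not clearly pair the ONC-S and ONC libraries: correlations of same-numbered libraries were 0.09, -0.04 and -0.09, and not every library correlated best with its own number. Pairing among the other groups was not tested. With the replicate block 3057 genes were called, 1612 higher and 1445 lower, and with the replicate block and GC and length offsets 3113.

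With 3 libraries a group, a gene that was not called is not shown to be equal in ONC-S and ONC.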

Other observations

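Genes outside the lists, chosen here for small p-values after their values were seen, changed in both directions. Rgs11, a regulator of the ON bipolar response, had 74.1, 70.8 and 71.8 CPM in ONC-S, against 123, 131 and 116 CPM in ONC (log2 fold change -0.77 ± 0.06 (SE), adjusted p = 3.44e-07). Snhg20, a small nucleolar RNA host gene, had 50.4, 45.4 and 50.9 CPM in ONC-S, against 85.6, 86.4 and 83.3 CPM in ONC (log2 fold change -0.80 ± 0.06 (SE), adjusted p = 5.28e-07), Wsb1, a ubiquitin ligase adaptor, had 96.3, 96.2 and 97 CPM in ONC-S, against 151, 159 and 157 CPM in ONC (log2 fold change -0.69 ± 0.06 (SE), adjusted p = 9.01e-07) and Pabpn1, the nuclear poly(A)-binding protein, had 88.9, 89.8 and 87.5 CPM in ONC-S, against 136, 137 and 128 CPM in ONC (log2 fold change -0.59 ± 0.05 (SE), adjusted p = 9.10e-07). Its cytoplasmic relative Pabpc1 was higher, at 181, 177 and 179 CPM in ONC-S, against 127, 136 and 137 CPM in ONC (log2 fold change 0.43 ± 0.05 (SE), adjusted p = 1.56e-05), as were Eif3f, a subunit of an initiation factor (0.55 ± 0.05), and the folliculin partner Fnip2, at 93.8, 95.7 and 89.9 CPM in ONC-S, against 58.1, 50.3 and 56.4 CPM in ONC (log2 fold change 0.76 ± 0.07 (SE), adjusted p = 4.30e-06). In each of Rgs11, Snhg20, Wsb1 and Pabpn1 the ONC-S libraries lay below every ONC library, which the choice by small p-values made likely.

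Among clock genes 4 of 22 were higher and 2 lower (27.3% called, beside 14.5% of all tested genes). The list had no common direction, with a median of -0.01, 10 positive and 12 negative fold changes. Per2 had 29.2, 26.7 and 26.3 CPM in ONC-S, against 45.2, 41.4 and 43.6 CPM in ONC (log2 fold change -0.66 ± 0.08 (SE), adjusted p = 2.89e-05) and Nr1d1, a repressor of the clock, had 233, 216 and 209 CPM in ONC-S, against 176, 152 and 190.2 CPM in ONC (log2 fold change 0.34 ± 0.07 (SE), adjusted p = 0.00241). The hour at which retinas were taken is not given in the sources used here. Without ONC-S replicate 2 or ONC replicate 2, 2 clock genes were higher.

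Among neurotrophic factors and receptors 5 of 17 were higher and 0 lower (29.4% called, beside 14.5% of all tested genes), with a median of 0.13. Igf1r had 276, 256 and 248 CPM in ONC-S, against 203, 192 and 207 CPM in ONC (log2 fold change 0.37 ± 0.07 (SE), adjusted p = 0.00122). The count of 5 became 3 without ONC-S replicate 1, ONC-S replicate 2 or ONC replicate 2 and 2 without ONC replicate 3. Of 35 tested immediate early genes, which neurons induce within minutes of activity, 2 were higher and 3 lower. That is 14.3% called, beside 14.5% of all tested genes, with a median of 0.03, so the list as a whole did not stand out. Among the lower ones, Fos had 12.6, 14.8 and 14.2 CPM in ONC-S, against 22.3, 34.1 and 25.7 CPM in ONC (log2 fold change -0.98 ± 0.29 (SE), adjusted p = 0.0305) and Nr4a1 31.1, 26.4 and 31 CPM in ONC-S, against 45.3, 60.6 and 49.8 CPM in ONC (log2 fold change -0.81 ± 0.22 (SE), adjusted p = 0.0181). Without ONC replicate 2, 0 genes of this list were lower, and without ONC-S replicate 2, 1 was. Fos kept the call only without ONC replicate 1 (adjusted p up to 0.127 otherwise), and Nr4a1 lost it without ONC-S replicate 2 or ONC replicate 2 (up to 0.0788).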
